A study of Mus musculus with 40 samples.

Results

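The 19 genes described here are those whose level in mouse liver was lower after partial hepatectomy and still lower at the last time measured, at both ages studied. They were chosen by a rule on the deposited mean levels of untreated livers. A gene had to stand at 3 or more at 0 h at 12 and at 3 months, and to lie lower by at least 0.7 at 48 h and again at 72 h at both ages. All levels are log2 of a quantity that the authors call sigma and do not define in the sources used here, and every difference is between log2 levels. Of 11119 genes in the tables, 4710 reached the level and 24 of those met all 4 differences. Dropping 5 of the 24 by the start of their symbol (Hsd3b5, Ces3b, Serpina11, Mup21 and Cyp2u1) left 19, all annotated as protein coding.

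Partial hepatectomy (PH) removes part of the liver, and the hepatocytes that remain leave quiescence, replicate their DNA and divide until the mass is restored. During this time the liver keeps up its service to the body while part of its resting expression programme is reduced. ATR is the kinase that senses stalled replication forks and holds back division, and ATRi is an inhibitor of it.

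The study sequenced polyadenylated RNA of mouse liver, with hepatocytes given as the cell type, from 40 samples in 9 groups. At 12 months these were livers at 72 h after PH with ATRi given once at 24 h (4 mice), at 48 h with the same treatment (3 mice), untreated at 72 h (4 mice) and 48 h (3 mice), and before PH at 0 h (8 mice). At 3 months they were livers at 72 h with ATRi (4 mice), untreated at 72 h (4 mice) and 48 h (3 mice), and at 0 h (7 mice). Sex, strain and genotype are not given in the sources used here, and neither is the unit of the ATRi dose. Some mice were sampled more than once: all 4 mice of each 12-month group at 72 h are also named at 0 h, as are 2 of 4 in each 3-month group at 72 h, and none of the mice at 48 h.

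For 8 groups only the authors' mean was deposited, with no spread, so their differences are given without a test. The 12-month ATRi group at 72 h has in addition the levels of its 4 single livers, named M545, M546, M547 and M548, and only comparisons with this group were tested. Depth is unknown, since the tables hold no counts. Of 14 measured hepatocyte markers, none lay below 3.24 in any group. Markers of mitosis, 16 of 16 measured, were higher by 0.7 or more in each of the 4 differences of the rule, with medians of 3.27 and 2.74 at 48 and 72 h at 12 months and of 3.25 and 2.20 at 3 months.

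The promoters of 3 of the genes are shown. The first is rich in CG pairs, the second is free of them, and the third holds matches to both a forkhead and a STAT motif. Each window runs from 250 bases before to 50 bases after the RefSeq start of the gene (GRCm38.p6), 5′ to 3′ on the strand of the gene, and 16 of the 19 genes had one. Capitals mark CG pairs in the first 2 windows, of which the second has none. In the third they mark a forkhead motif and a pair of STAT motifs.
Arrdc3, chr13:80883134-80883433, plus strand: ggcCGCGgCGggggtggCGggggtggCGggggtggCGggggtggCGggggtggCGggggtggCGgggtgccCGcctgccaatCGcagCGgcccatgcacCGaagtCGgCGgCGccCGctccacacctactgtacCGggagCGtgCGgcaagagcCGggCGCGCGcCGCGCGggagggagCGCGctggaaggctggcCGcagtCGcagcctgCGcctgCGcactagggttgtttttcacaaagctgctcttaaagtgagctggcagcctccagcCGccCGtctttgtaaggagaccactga
Clec2h, chr6:128662135-128662434, plus strand: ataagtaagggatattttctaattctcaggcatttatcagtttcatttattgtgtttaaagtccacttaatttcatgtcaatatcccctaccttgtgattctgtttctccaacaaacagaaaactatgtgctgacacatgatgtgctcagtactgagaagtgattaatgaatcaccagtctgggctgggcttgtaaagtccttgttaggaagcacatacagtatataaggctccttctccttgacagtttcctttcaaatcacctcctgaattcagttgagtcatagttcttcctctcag
Cpsf4l, chr11:113709968-113710267, minus strand: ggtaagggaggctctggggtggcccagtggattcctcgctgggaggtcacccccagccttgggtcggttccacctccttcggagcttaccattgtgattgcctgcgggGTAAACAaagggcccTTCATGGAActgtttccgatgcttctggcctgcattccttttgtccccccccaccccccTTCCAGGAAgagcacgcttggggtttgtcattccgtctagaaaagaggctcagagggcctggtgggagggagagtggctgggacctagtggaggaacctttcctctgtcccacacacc

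The Arrdc3 window held 35 CG pairs and 73.0% G and C, and the Clec2h window held 0 CG pairs and 38.0% G and C. The 16 windows had a median of 13 CG pairs (0 to 37) and a median G and C content of 54.3%. Over the windows of 8234 genes of the tables the medians were 20 CG pairs and 60.3%. In all, 10 motifs were searched on both strands, and none of their letters overlapped another motif's match in these windows. The forkhead motif TGTTTAC stood in 1 of the 16 windows and in 2.77% of all windows, and the STAT motif TTCNNNGAA in 1 and in 7.17%. The C/EBP motif TTGCNNAA stood in 1 (Csrp3, at 2 places) and in 8.94% of all, the RORE motif TAGGTCA in 1 (Bbs10) and in 2.04%, and the TATA motif TATAAA in 1 (Mycl) and in 7.83%. No match was found for the HNF1 motif (0% of all windows), the HNF4 motif CAAAGTCCA (0.474%), the E-box CACGTG (9.84%), the D-box TTATGNAA (2.27%) or the ONECUT motif ATTGAT (4.17%). No motif was therefore shared by 2 or more of the 16 windows, and a match describes letters only.

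The 19 genes are of many kinds and lie on 11 chromosomes, with 4 on chromosome 11 (Cpsf4l, Igfbp3, Fn3k and Inca1) and 3 on chromosome 6 (Clec2h, Scnn1a and Tprkb). No 2 of them were next to each other in the tables. The 38 genes of the tables that flank them had a median of −0.13 for the mean of the same 4 differences, and none of the 38 met all 4. The genes are short: their annotated lengths ran from 2.99 to 54.4 kb with a median of 12.7 kb, against a median of 20.9 kb over 4349 genes that reached the level and had a length.

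**Figure D1:**
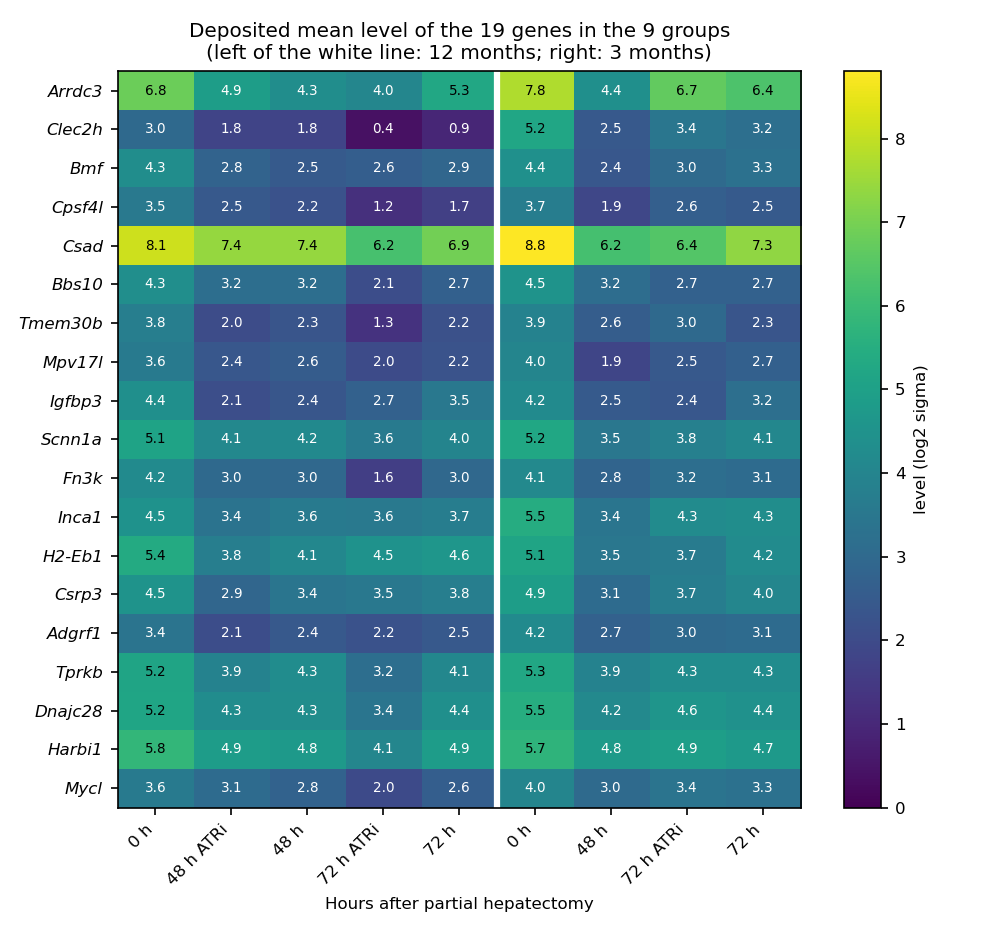
Deposited mean level (log2 sigma) of the 19 genes in the 9 groups, with 12-month groups left of the white line and 3-month groups right of it, and genes ordered by the mean of the 4 differences that chose them. Each 0 h column is higher than every later column of its age, and Clec2h is the gene whose 0 h level differed most between the ages, at 3.03 at 12 months and 5.19 at 3 months.

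The values that chose the genes are a description. At 12 months the 19 genes were lower than at 0 h by a median of 1.12 at 48 h (differences of −2.51 to −0.72) and of 1.14 at 72 h (−2.08 to −0.75). At 3 months the median differences were −1.71 at 48 h (−3.39 to −0.90) and −1.14 at 72 h (−1.98 to −0.72). Over all 11119 genes the medians of these differences were −0.02 and −0.09 at 12 months and −0.09 and −0.09 at 3 months. A difference of −0.7 or lower was found in 4.59% and 3.65% of all genes at 48 and 72 h at 12 months, and in 6.49% and 6.24% at 3 months. Of the 19, 8 (Arrdc3, Clec2h, Bmf, Cpsf4l, Bbs10, Tmem30b, Mpv17l and Fn3k) were lower by 1 or more in all 4, against 0.126% of all genes. Where a sample holds several cell types, a lower level from fewer cells and one from less RNA per cell cannot be told apart.

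The threshold separates near neighbours. Just inside it, by the smallest of the 4 differences, lay Csad (−0.72), Mycl (−0.72), Inca1 (−0.75), Csrp3 (−0.76) and H2-Eb1 (−0.76). Just outside lay P2ry4 (−0.69), Adrb3 (−0.68), Fastkd1 (−0.68) and Kcnn1 (−0.67), with 1 entry that joins a pair of genes passed over. Eid2b and Tfap4, at 2.98 and 2.97 in the lower of their 0 h tables, met all 4 differences and missed the level.

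**Figure D2:**
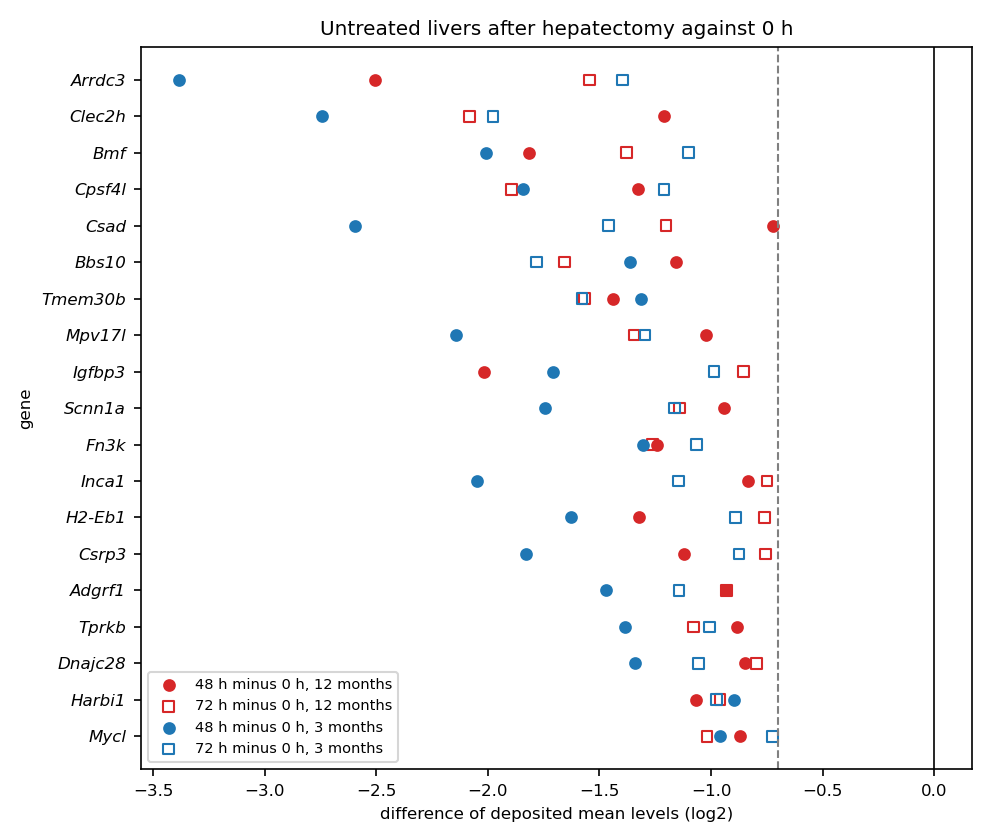
Difference of deposited mean levels (log2) of untreated livers at 48 h (circles) and 72 h (squares) from 0 h, at 12 months (red) and 3 months (blue), for the 19 genes. The dashed line is the threshold of −0.7 that chose them, so that all points lie left of it. Arrdc3 at 48 h reached −2.51 at 12 months and −3.39 at 3 months.

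Regulators of receptors, growth factors and cell division made up the first set. Arrdc3 (chromosome 13, 80883384 to 80896042), an arrestin-domain adaptor that links membrane receptors to ubiquitin ligases, had the lowest mean of the 4 differences, at −2.21. Untreated 12-month livers had Arrdc3 levels of 6.82 at 0 h, 4.32 at 48 h and 5.28 at 72 h, and 3-month livers 7.76, 4.37 and 6.36. The 2 ages differed by 0.05 at 48 h, and 72 h lay between 48 h and 0 h in both. Other arrestin-domain genes, looked up after the values of Arrdc3 were seen, were lower in part. Arrdc2 differed from 0 h by −1.35 and −0.67 at 48 and 72 h at 12 months and by −1.55 and −0.79 at 3 months, and Txnip, an inhibitor of thioredoxin and glucose uptake, by −0.66 and −0.76 at 12 months and by −2.46 and −1.38 at 3 months. Arrdc4 differed by −0.20 to −0.55 and Arrdc1 by −0.03 to −0.50.

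Igfbp3 (chromosome 11, 7206086 to 7213923) encodes the main carrier of insulin-like growth factors in blood. Its level was 4.37, 2.35 and 3.52 at 0, 48 and 72 h at 12 months and 4.20, 2.49 and 3.21 at 3 months. This was the only gene of the 19 on the list of the growth hormone axis. Of 18 measured genes of that list, 1 and 2 were lower by 0.7 or more at 48 and 72 h at 12 months and 9 and 5 at 3 months, while 1 and 4 were higher at 12 months and 0 and 3 at 3 months. Its neighbour Igfbp1, about 20 kb away, was higher by 0.92 and 0.09 at 12 months and by 0.52 and 1.12 at 3 months. Igfbp2 differed by −0.61 and −0.73 at 12 months and by −2.68 and −1.09 at 3 months. Igfbp5 differed by 0.045 and 0.32 at 12 months and by −2.07 and 0.26 at 3 months. For Igfbp4 the values were −0.20 and 0.58, then 0.53 and 0.17, and for Igfbp6 0.62 and 0.30, then −0.07 and 1.15.

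Mycl (chromosome 4, 122995652 to 123002485), the L-Myc member of the MYC family of transcription factors, had the smallest mean difference of the 19, at −0.89. Its level was 3.63, 2.76 and 2.62 at 0, 48 and 72 h at 12 months and 4.0, 3.04 and 3.27 at 3 months. Myc itself differed from 0 h by 0.60 and −0.05 at 12 months and by 0.11 and 0.65 at 3 months. Inca1, which binds cyclin A1 and inhibits CDK2, stood at 4.47, 3.64 and 3.73 at 12 months and at 5.45, 3.41 and 4.31 at 3 months. Adgrf1, an adhesion-type G protein-coupled receptor also called GPR110, stood at 3.38, 2.45 and 2.45 at 12 months and at 4.22, 2.74 and 3.07 at 3 months.

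A cell death gene was among them. Bmf (chromosome 2, 118528757 to 118549687), a BH3-only protein that binds and opposes the survival members of the BCL2 family, stood at 4.30, 2.48 and 2.92 at 12 months and at 4.40, 2.39 and 3.30 at 3 months. Among 5 other measured BH3-only genes, Bik was lower by 0.7 or more in all 4 differences (−1.19 and −1.32 at 12 months, −1.22 and −2.01 at 3 months) but began below the level of 3. Bid was lower by at least 0.7 in 3 of the 4, Bcl2l11 and Bbc3 in 1 each, and Pmaip1 in none.

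Metabolic enzymes and membrane proteins formed another set. Csad (chromosome 15, 102176999 to 102204724) decarboxylates cysteine sulfinic acid in the synthesis of taurine, which hepatocytes join to bile acids. Levels of Csad were 8.13, 7.41 and 6.93 at 0, 48 and 72 h at 12 months, and 8.80, 6.21 and 7.34 at 3 months. At 12 months its level was lower at 72 h than at 48 h, and at 3 months 48 h was the lowest time. Cdo1, which makes the substrate of Csad, differed from 0 h by −0.67 and −0.62 at 12 months and by −0.48 and −0.44 at 3 months, and Baat, which joins taurine to bile acids, by −0.43 and −0.47 and by −0.09 and −0.35. Csad was the only gene of the 19 on the list of amino acid and one-carbon enzymes, of whose 72 measured genes 14 and 4 were lower by 0.7 or more at 48 and 72 h at 12 months and 17 and 6 at 3 months. Its 5′ end overlaps Zfp740 on the other strand, and whether the authors' counting used strand is not given; Zfp740 differed by 0.43 and −0.29 at 12 months and by −0.41 and −0.50 at 3 months.

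Fn3k (chromosome 11, 121434913 to 121450491), a kinase that frees proteins from sugars bound to their lysines, stood at 4.23, 2.99 and 2.97 at 12 months and at 4.14, 2.84 and 3.08 at 3 months. Its paralogue Fn3krp lies about 20 kb away and differed by −0.44 and −0.37 at 12 months and by −0.86 and −0.92 at 3 months. Mpv17l, a membrane protein of mitochondria and peroxisomes, stood at 3.58, 2.56 and 2.24 at 12 months and at 4.0, 1.85 and 2.70 at 3 months. Its relative Mpv17 differed by 0.12 and −0.16 at 12 months and by −0.15 and 0.04 at 3 months. Another relative, Pxmp2, differed by −0.94 and −0.28 at 12 months and by −0.28 and 0.12 at 3 months.

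Tmem30b is a partner subunit of the flippases that move phospholipids across membranes. Tmem30b levels were 3.75, 2.31 and 2.19 at 12 months and 3.90, 2.58 and 2.32 at 3 months, so that 72 h was the lowest time at both ages. The other measured subunit gene of that family, Tmem30a, differed by −0.29 and −0.37 at 12 months and by −0.25 and −0.24 at 3 months. Scnn1a, the alpha subunit of the epithelial sodium channel, stood at 5.12, 4.18 and 3.98 at 12 months and at 5.23, 3.48 and 4.07 at 3 months. Csrp3, a LIM-domain protein known from muscle, stood at 4.53, 3.41 and 3.78 at 12 months and at 4.91, 3.08 and 4.04 at 3 months. Next to Csrp3, about 30 kb away, E2f8 differed by −0.29 and −0.13 at 12 months and by −2.23 and −1.59 at 3 months.

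Genes for the handling of RNA, proteins and cilia came next. Cpsf4l, a relative of the polyadenylation factor subunit gene Cpsf4, stood at 3.55, 2.22 and 1.66 at 12 months and at 3.72, 1.88 and 2.51 at 3 months. Cpsf4 itself differed by 0.41 and −0.47 at 12 months and by −0.17 and −0.91 at 3 months. Tprkb, a subunit of the KEOPS complex that modifies transfer RNA, stood at 5.16, 4.28 and 4.08 at 12 months and at 5.28, 3.90 and 4.27 at 3 months. The 3 other measured KEOPS genes (Osgep, Trp53rkb and Lage3) had no difference of −0.7 or lower. Tprkb overlaps Nat8f1 on the other strand, so with the use of strand not given its reads may not all be its own. The same limit holds for Arrdc3, Mpv17l, H2-Eb1, Dnajc28 and Harbi1, which overlap annotated antisense transcripts, processed transcripts or pseudogenes on the other strand.

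Bbs10 (chromosome 10, 111298679 to 111301727) encodes a chaperonin-like protein that helps to assemble the BBSome of the cilium. Its level was 4.35, 3.19 and 2.69 at 12 months and 4.53, 3.16 and 2.75 at 3 months. Like Tmem30b it was lower at 72 h than at 48 h at both ages. This held for 2 of the 19 and for 39.8% of all genes. Of 10 other measured genes of the BBSome and its assembly, Bbs12 was lower by 0.77 at 48 h at 12 months and no other had a difference of −0.7 or lower. Dnajc28, a J-domain protein, stood at 5.17, 4.33 and 4.38 at 12 months and at 5.50, 4.16 and 4.44 at 3 months, and Harbi1, a protein derived from a transposase, at 5.83, 4.77 and 4.87 and at 5.71, 4.81 and 4.74.

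The last 2 are immune genes. Clec2h (chromosome 6, 128662385 to 128677374), a C-type lectin-like protein that binds receptors of natural killer cells, stood at 3.03, 1.82 and 0.94 at 12 months and at 5.19, 2.45 and 3.22 at 3 months. H2-Eb1 (chromosome 17, 34305867 to 34316674), a chain of the class II MHC that presents antigen to T cells, stood at 5.39, 4.07 and 4.63 at 12 months and at 5.13, 3.50 and 4.24 at 3 months. Cd74, the chaperone of class II molecules, differed by −1.50 and −0.35 at 12 months and by −1.58 and −0.61 at 3 months. H2-Ab1 was listed between 0.26 and 0.69 in all 9 groups.

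Markers of immune cells are given beside H2-Eb1. Below 0 h at 48 and 72 h lay 51.8% and 60.0% of all genes at 12 months and 60.7% and 60.6% at 3 months. Of 9 measured markers of B and plasma cells, 8 and 6 were lower than at 0 h at 48 and 72 h at 12 months and 9 and 8 at 3 months, and the log2 of their summed level was 4.58, 4.12 and 4.69 at 0, 48 and 72 h at 12 months and 4.60, 3.97 and 4.38 at 3 months. Of 12 markers of T and natural killer cells, 11 and 11 were lower at 12 months and 12 and 12 at 3 months, with summed levels of 4.69, 4.31 and 4.49 and of 4.67, 4.20 and 4.34. At 12 months the summed level of the B and plasma cell markers was higher at 72 h than at 0 h. At the same time 6 of the 9 markers, and H2-Eb1, were lower than at 0 h. The 14 macrophage markers had summed levels of 9.08, 8.57 and 9.99 at 12 months and of 8.64, 8.63 and 8.89 at 3 months. The lowest level listed for any gene was 0.049. The T and natural killer cell markers had medians of 1.01, 0.68 and 0.70 at 12 months and 1.085, 0.52 and 0.67 at 3 months. Those of the B and plasma cell markers were 0.90, 0.86 and 0.74 and 0.97, 0.90 and 0.84. Such low levels limit the counts and the summed levels of both lists. The part of these cells in the H2-Eb1 difference was not tested.

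Between 48 and 72 h the ages differed in course. At 12 months the 19 genes differed between 72 h and 48 h by a median of −0.02, with 9 above 0 and 10 below (60.0% of all genes were below), and 2 (Igfbp3 and Arrdc3) higher by 0.7 or more, against 6.55% of all genes. At 3 months 16 of 19 were higher at 72 h than at 48 h and 3 lower, against 51.5% of all genes lower, with a median of 0.63, and 9 were higher by 0.7 or more, against 5.31% of all genes. In 8 genes the level was higher at 72 h than at 48 h at both ages, against 28.2% of all genes. They include Arrdc3 (0.96 at 12 months, 1.99 at 3 months) and Igfbp3 (1.17 and 0.72). Another 8 were higher at 72 h at 3 months and lower at 12 months, against 20.1% of all genes. Among them were Csad (−0.48 and 1.14) and Clec2h (−0.87 and 0.77). These differences use the means that chose the genes and were not tested.

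At 48 h the ages also differed in how far the untreated means lay below 0 h. At 72 h the median was −1.14 at both ages. The difference was deeper at 3 than at 12 months in 16 of 19 genes at 48 h, against 59.9% of all genes, and in 11 of 19 at 72 h, against 54.5%. The difference between the ages was largest for Csad, at −0.72 at 12 months and −2.60 at 3 months, and next for Clec2h, at −1.21 and −2.74. It ran the other way at 48 h for Igfbp3, Harbi1 and Tmem30b. At 0 h 15 of the 19 were lower at 12 than at 3 months, against 61.4% of all genes, by a median of 0.18, and 4 (Clec2h, Inca1, Arrdc3 and Adgrf1) were lower by 0.7 or more, against 1.72% of all genes. At 72 h 16 were lower at 12 months, against 54.6% of all genes, with 3 (Clec2h, Arrdc3 and Cpsf4l) by 0.7 or more, against 2.46%. The means compared here are those that chose the genes, and no difference between them was tested.

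Under ATRi the 19 genes were low as well. At 12 months all 19 lay below 0 h at 48 h with ATRi, by a median of 1.22, and 18 by 0.7 or more, against 3.89% of all genes. The exception was Mycl, at −0.57. At 72 h with ATRi all 19 were lower than at 0 h by 0.7 or more at 12 months (median −1.76), against 11.4% of all genes, and 18 of 19 at 3 months (median −1.19), against 4.89%, with Mycl at −0.62 again the exception. These comparisons share their 0 h means with the rule, which chose genes that were high there. In limma's fit across all genes (Benjamini-Hochberg adjusted p under 0.05) the 12-month difference at 72 h was called lower for 17 of the 19, with Csrp3 and H2-Eb1 not called, against 22.5% of all genes. Since the rule used the 0 h mean, that count is a description and supports nothing. Over all genes 2843 were called higher and 2504 lower, and 2103 and 4492 with each group centred on its median.

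Set against untreated livers, ATRi livers at 48 h and 3-month ATRi livers at 72 h had means on both sides. At 48 h at 12 months the 19 genes differed by a median of −0.03 (−0.51 to 0.59), with 13 below 0, against 50.1% of all genes, and 0 lower by 0.7 or more, against 0.89% of all genes. At 72 h at 3 months the median was −0.02 (−0.91 to 0.70), with 10 below 0, against 50.8% of all genes. Csad stood at 6.43 with ATRi and 7.34 untreated, and Igfbp3 at 2.38 with ATRi and 3.21 untreated. These were the 2 lower by 0.7 or more, against 0.621% of all genes. The highest difference there was that of Tmem30b, at 3.02 with ATRi and 2.32 untreated.

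At 72 h at 12 months, by contrast, all 19 genes had a lower mean with ATRi than untreated, by a median of 0.62 (−1.34 to −0.15), while 42.4% of all genes were lower and their median was 0.08. Among genes at level 3 or more at 0 h, 51.6% were lower and the median was −0.015. The untreated mean at 72 h is also one that the rule used, and it chose genes that were low there. Fn3k stood at 1.21, 1.72, 1.93 and 1.65 in the livers M545 to M548 with ATRi, with a deposited mean of 1.63, against an untreated mean of 2.97. All 4 livers lay below the untreated mean. Arrdc3 stood at 4.01, 3.62, 4.49 and 3.91 with ATRi (deposited mean 4.04), against 5.28 untreated, again with all 4 livers below. Tprkb stood at 3.08, 3.12, 3.08 and 3.29 with ATRi (deposited mean 3.17), against 4.08 untreated, and its liver M548 stood apart from the other three. For 15 of the 19 genes all 4 livers lay below the untreated mean, against 25.8% of all genes. Among genes at level 3 or more at 0 h that share was 35.5%. Scnn1a, H2-Eb1, Csrp3 and Adgrf1 had 1 liver or more above the untreated mean. The livers as deposited lay below their own deposited mean by a median of 0.16 over the 19 genes and of 0.09 over all genes, so their single levels are low beside any mean by about that much.

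**Figure D3:**
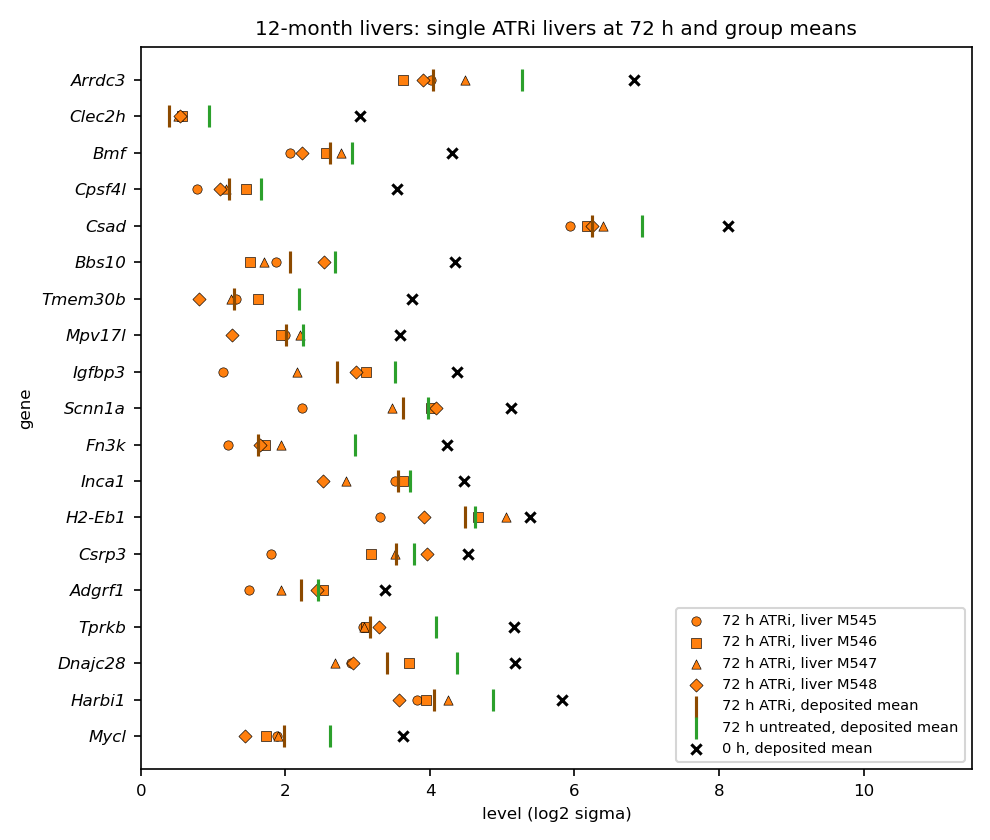
Levels (log2 sigma) of the 19 genes in the 4 single 12-month livers at 72 h with ATRi (orange symbols), with the deposited means of that group (brown bars), of untreated livers at 72 h (green bars) and of livers at 0 h (crosses). The untreated mean of Fn3k (2.97) lies to the right of its 4 ATRi livers (1.21 to 1.93), while the livers of H2-Eb1 (3.31 to 5.05) lie on both sides of theirs (4.63).

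In limma's fit, 7 of the 19 were called lower with ATRi at an adjusted p under 0.05, against 2.38% of all genes, and 0 were called higher, against 9.04%. Because the rule used the untreated mean at 72 h, these counts are a description and no independent test of the 19 genes. The 7 were Fn3k, with a difference of −1.34, Arrdc3 (−1.24), Tprkb (−0.91), Tmem30b (−0.89), Harbi1 (−0.82), Csad (−0.68) and Clec2h (−0.56). Over all genes 1005 were called higher and 265 lower. With each group centred on its own median, which moved the median over all genes to −0.14, 393 were called higher and 943 lower, and 9 of the 19 were lower. All 7 calls rest on the spread of the 4 ATRi livers alone, since the other groups have a mean only, and on giving each of those means the weight of its number of mice. With each mean at weight 1, and also when M545, M547 or M548 was left out, none of the 11119 genes was called in either direction, while the median over the 19 genes lay between −0.62 and −0.56. Without M546 2094 of all genes were called higher and 592 lower, 7 of the 19 among the lower.

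For Clec2h the small spread has a floor in it. Its livers stood at 0.51 to 0.56, and its levels in M547 and M548 are the lowest of those livers, shared by 249 and 278 genes. The 4 livers lay above their deposited mean of 0.39, to which the fit shifts them. A floor hides lower levels and narrows the spread, so no SE or p is given for this gene and its differences are read as limited by the floor.

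Gene length moved with this comparison. Among genes at level 3 or more, the median difference between 12-month ATRi and untreated livers at 72 h was −0.21 for genes under 5 kb, −0.15 from 5 to 10 kb, −0.12 from 10 to 20 kb, 0.04 from 20 to 50 kb, 0.33 from 50 to 100 kb and 0.47 for the 110 genes that were longer. The 19 genes fall into these classes as 3, 2, 9, 4, 1 and 0. At 3 months the same medians ran from −0.08 to 0.02. With each group centred within 10 bins of length, a setting chosen after seeing the data, 18 of 19 genes were below 0, with a median of −0.49, and 5 were called lower. The part of length in the difference that remains was not tested.

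**Figure D4:**
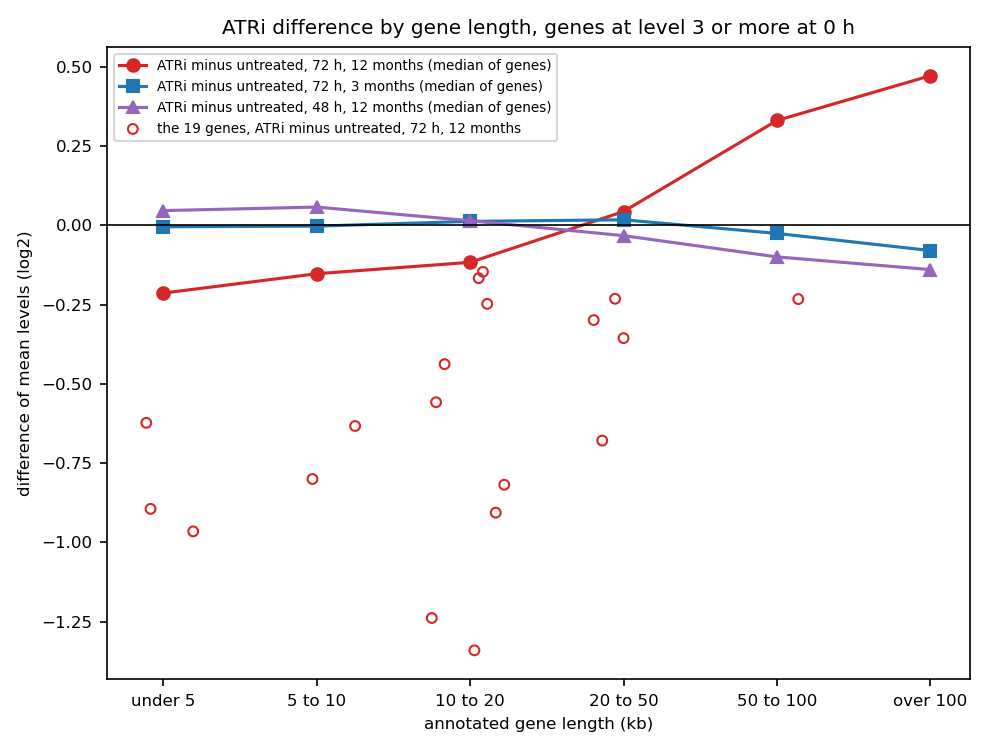
Median difference (log2) between ATRi and untreated livers by annotated gene length, for genes at level 3 or more at 0 h, at 72 h at 12 months (red), 72 h at 3 months (blue) and 48 h at 12 months (purple), with the 19 genes at 72 h at 12 months as open circles spread sideways within their class. The red medians run from −0.21 under 5 kb to 0.47 over 100 kb, and the 19 genes lie between −1.34 and −0.15.

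The next 2 comparisons use no mean that chose the genes, but they share mice with the 0 h means. All 4 mice of the 12-month ATRi group at 72 h are also named at 0 h. So are 2 of 4 in the 3-month ATRi group, and none of the mice at 48 h. Between 72 h and 48 h under ATRi at 12 months, 14 of 19 genes were lower at 72 h, against 50.9% of all genes, by a median of 0.75, and 11 by 0.7 or more, against 14% of all genes. Clec2h stood at 0.56, 0.56, 0.51 and 0.55 in the livers at 72 h, against a mean of 1.80 at 48 h. Csad stood at 5.93, 6.17, 6.40 and 6.25 at 72 h, against 7.40 at 48 h, and Cpsf4l at 0.78, 1.45, 1.17 and 1.10, against 2.46. In each of the 3 genes all livers at 72 h lay below the 48 h mean, as in 14 of the 19 and in 37.9% of all genes. Among genes at level 3 or more at 0 h that share was 47.3%, and 56.7% had a lower mean at 72 h. Limma called 10 of the 19 lower at 72 h, against 17.8% of all genes, and 0 higher, against 19.4%. These 10 were Clec2h (−1.42, limited by the floor), Fn3k (−1.39), Cpsf4l (−1.24), Csad (−1.15, SE 0.15, adjusted p = 0.00449), Bbs10 (−1.11), Mycl (−1.08), Arrdc3 (−0.86), Harbi1 (−0.80), Tmem30b (−0.75) and Tprkb (−0.73). Csad passed in all 11 alternatives, with an adjusted p of up to 0.0393. With each mean at weight 1, 2 of the 19 were called lower (Clec2h and Csad), and over all genes 488 higher and 426 lower. Without M545 6 were called lower and 1 higher. Gene length moved with this comparison too, with medians from −0.34 under 5 kb to 0.70 over 100 kb among genes at level 3 or more. Centred by length, the median over the 19 genes was −0.44 and 5 were called lower, against 1795 higher and 2127 lower over all genes. Over all genes 2159 were called higher and 1975 lower, and 1755 and 2770 with each group centred on its median. The genes above 0 were H2-Eb1 (0.71), Csrp3 (0.63), Igfbp3 (0.60), Inca1 (0.19) and Adgrf1 (0.15), none of them past the test, and M545 was the lowest of the 4 livers in 4 of these 5.

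Between ages under ATRi at 72 h, 17 of 19 genes had a lower mean at 12 than at 3 months, against 45.6% of all genes, by a median of 0.79, and 11 by 0.7 or more, against 6.86% of all genes. The 4 livers with ATRi at 12 months held Clec2h at 0.51 to 0.56, against a mean of 3.44 at 3 months. Arrdc3 stood at 3.62 to 4.49 at 12 months, against 6.69 at 3 months, and Tmem30b at 0.81 to 1.62, against 3.02. In these 3 genes every 12-month liver lay below the 3-month mean, as in 15 of the 19 and in 32.1% of all genes. Among genes at level 3 or more at 0 h that share was 43.9%, and 54.1% had a lower mean at 12 months. Limma called 9 of the 19 lower at 12 months, against 9.96% of all genes, and 0 higher, against 18.3%. They were Clec2h (−3.06, limited by the floor), Arrdc3 (−2.64, SE 0.22, adjusted p = 0.00488), Tmem30b (−1.72), Fn3k (−1.55), Cpsf4l (−1.43), Mycl (−1.39), Dnajc28 (−1.20), Tprkb (−1.11) and Harbi1 (−0.88). With each mean at weight 1 only Clec2h of the 19 was called, and over all genes 5 were called higher and 2 lower. Of these 9, Clec2h and Arrdc3 were already lower by 2.17 and 0.93 at 12 months at 0 h. Untreated livers at 72 h, whose means the rule used, differed between the ages by −2.27 (Clec2h), −1.08 (Arrdc3), −0.85 (Cpsf4l) and −0.66 (Mycl). For Tmem30b, Fn3k, Dnajc28, Tprkb and Harbi1 that difference lay between −0.195 and 0.138. Over all genes 2040 were called higher and 1107 lower, against 1363 and 2415 with each group centred on its median and 1303 and 1863 centred by length, where 11 and 10 of the 19 were lower.

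The ATRi difference at 72 h was also set against itself at 12 and 3 months, as an interaction in the same fit. It contains the untreated 72 h means of both ages, which the rule used, so it is a description for these genes. None of the 19 was called by limma at an adjusted p under 0.05 (over all genes 0 were called lower, or 0%, and 1 higher, or 0.00899%). At an unadjusted p under 0.05, 8 of the 19 were lower, against 7.44% of all genes. The largest were Tmem30b, at −0.89 at 12 months and 0.70 at 3 months (interaction −1.59), and Arrdc3, at −1.24 and 0.33 (−1.57). Without M546 4 of the 19 were called lower, and over all genes 1055 were called higher and 256 lower.

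Among the livers, M545 was the lowest for 10 of the 19 genes and the highest for 0. How often each liver was the lowest over all genes was not counted. The median distance of M545 from the untreated mean at 72 h was −1.0, against −0.57 in M546, −0.63 in M547 and −0.71 in M548. Over all genes the same medians were 0.074 in M545, 0.036 in M546, 0.045 in M547 and 0.029 in M548. For Igfbp3, M545 stood at 1.14 and the other livers at 2.16 to 3.12.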

How the data were processed

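RNA sequencing of mouse liver had been done on 40 samples in 9 groups. The authors deposited 12 tables of log2 levels (log2 of a value they call sigma) for the same 11119 genes, with a mean for each group and, for the 12-month ATRi group at 72 h, the levels of 4 single livers. The genome build is GRCm38/mm10, per the submitters' processing notes. The aligner, the counting, its use of strand, the scaling between samples and the extraction protocol are not given in the sources used here, and depth is unknown. Whether sigma is per gene length is not stated, so differences between groups were taken within each gene. The level cut of the rule, the summed levels of markers and the medians of marker levels do use levels across genes. Those values are limited by the unknown scale of sigma.

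Values were used on the authors' scale. Positions and lengths came from GENCODE release M21, in which 10409 genes (93.6%) were found by symbol on the same chromosome, and promoter windows came from RefSeq. The 19 genes, the gene lists and the comparisons were chosen with earlier results of these data known, and the related genes of each family were looked up after values were seen. Genes were named by a rule on size of difference, level, list and test, which took in all 19.

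Differences between 2 means were counted at 0.7 with no test. Differences from the 4 livers were tested in 1 fit of all 9 groups (limma 3.58.1, R 4.3.3; two-sided tests, intensity trend, robust empirical Bayes, Benjamini-Hochberg adjustment over 11119 genes, threshold 0.05). The livers were shifted gene by gene so that their mean equals the deposited mean, from which they differed by a median of 0.088, and each other mean was weighted by its number of mice, which takes it to be a plain average of them; how the means were made is not given. The spread therefore comes from 4 livers, and the fit takes every other group to be as variable. Counts with each mean at weight 1 stand beside the results they change. Nothing says how livers were taken or whether libraries were made together, so p-values measure the spread between these samples. The procedure was tested on simulated data. Over the 4 livers no gene of the 19 exceeded Dixon's critical value at the 0.05 level, which Tprkb reached to within rounding through M548.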

Additional observations from a re-analysis of the deposited data

How the results depend on the processing

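A drop of 0.6 in place of 0.7 chose 44 genes, a drop of 1 chose 8 and a level of 2 chose 30, against 19. A level of 4 (13 genes), differences centred on their median (15) and no symbol dropped (24) stayed within 1.5 times of it, and every wider setting kept the 19. The 7 genes called lower with ATRi than untreated at 72 h at 12 months became 0 with the livers as deposited, 0 with each mean at weight 1 and 4 with ordinary empirical Bayes, and 0 to 7 with a liver left out. Both settings with 0 called none of all 11119 genes, and ordinary empirical Bayes called 672 higher and 191 lower, against 1005 and 265. With each mean at weight 1, 11 genes were called against 0 h, 2 against ATRi at 48 h and 1 between the ages, with 380 higher and 194 lower, 488 and 426, and 5 and 2 called over all genes. Leaving out a liver gave 16 to 17 against 0 h, 6 to 11 lower and 0 to 1 higher against ATRi at 48 h, 7 to 9 between the ages and 0 to 4 for the interaction. Centring by gene length gave 5 against ATRi at 48 h. Of the 26 calls on single genes outside the comparison with 0 h, no difference changed sign in any of the 11 alternatives, and 3 passed at weight 1. Those 3 were Csad against ATRi at 48 h, and Clec2h, limited by the floor, against ATRi at 48 h and between the ages. With the livers as deposited 19 passed, and 19 when centred by length. The medians of the differences between means moved by less than the spread between livers when centred or limited to a level of 4. No paired analysis was possible because the groups other than the 4 livers have only a mean. With depth unknown and 1 group with single values, precision is limited by the 4 livers.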
